A study of Mus musculus with 2 samples.

Results

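Genes of the cytotoxic granule and its partner ligand were followed in lymphocytes of the injured thalamus. They are 7 of the 33696 genes in the count matrices and were chosen by symbol: the granzymes *Gzma*, *Gzmb*, *Gzmc* and *Gzmk*, the perforin gene *Prf1*, *Nkg7* and *Fasl*. Each symbol matched 1 row. The scRNA-seq comprised 2 libraries of live CD45+ cells from the thalamus of C57B6/J mice (the spelling of the labels, C57BL/6J in the methods; 12 weeks old per the reporting summary, mostly females in the study) that had received cortical ablation injury (CAI), a surgical lesion of the cortex. Both groups had cannulas in the thalamus. The control Ab mice received normal rat IgG and the anti-CD9 Ab mice received the blocking antibody of clone KMC8, both at 1.0 µg/µl between days 7 and 19, and tissue was taken on day 21. No uninjured or uninjected sample was among the samples analysed here. The methods give a pool of 4 mice for a thalamus library but do not repeat this number for the antibody groups. With 1 library per antibody, the antibody, the pool of mice and the library cannot be told apart, no test between them was possible, and all intervals below are 95% intervals that cover counting error only.

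Cytotoxic lymphocytes store perforin and granzymes in secretory granules and release them onto a bound target cell. Perforin opens pores through which granzymes, a family of serine proteases, enter the target and cleave its proteins, and granzyme B can start apoptosis through caspases. Fas ligand kills by another route, through the death receptor Fas on the target. Natural killer (NK) cells and CD8 T cells are the classical users of this machinery, while CD4 T cells and gamma-delta T cells use it less.

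The promoters of the 4 granzyme genes are shown first, since *Gzmb* had the widest log2 ratio of the 7 genes in gamma-delta T cells and the other granzymes are its relatives. They are given as the 250 bases before the start site on the sense strand (RefSeq, GRCm38.p6, a build other than the GRCm39 of the counts). All lie on the minus strand of the chromosome. The windows are chr13:113100982-113101231 for *Gzma*, chr14:56262335-56262584 for *Gzmb*, chr14:56234658-56234907 for *Gzmc* and chr13:113180966-113181215 for *Gzmk*. *Gzma* and *Gzmk* thus lie close together on chromosome 13, and *Gzmb* and *Gzmc* on chromosome 14. Capitals mark matches, on either strand, to 4 motifs: the RUNX core TGTGGT, the full cAMP response element (CRE) TGACGTCA, the AP-1 site TGANTCA and the T-box half-site AGGTGTGA.
Gzma: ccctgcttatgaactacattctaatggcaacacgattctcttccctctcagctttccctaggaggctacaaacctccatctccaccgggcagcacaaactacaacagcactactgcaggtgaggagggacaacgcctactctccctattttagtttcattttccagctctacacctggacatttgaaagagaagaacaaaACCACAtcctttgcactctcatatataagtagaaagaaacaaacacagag
Gzmb: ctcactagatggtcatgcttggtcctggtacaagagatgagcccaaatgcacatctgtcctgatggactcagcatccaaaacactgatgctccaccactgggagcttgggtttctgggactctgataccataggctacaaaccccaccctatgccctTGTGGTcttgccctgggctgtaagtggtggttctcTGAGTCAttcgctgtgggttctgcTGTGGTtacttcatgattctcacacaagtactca
Gzmc: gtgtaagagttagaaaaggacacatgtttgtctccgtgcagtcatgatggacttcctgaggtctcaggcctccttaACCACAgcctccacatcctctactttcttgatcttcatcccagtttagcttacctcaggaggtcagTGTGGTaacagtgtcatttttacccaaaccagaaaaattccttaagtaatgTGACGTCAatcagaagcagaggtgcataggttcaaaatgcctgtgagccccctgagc
Gzmk: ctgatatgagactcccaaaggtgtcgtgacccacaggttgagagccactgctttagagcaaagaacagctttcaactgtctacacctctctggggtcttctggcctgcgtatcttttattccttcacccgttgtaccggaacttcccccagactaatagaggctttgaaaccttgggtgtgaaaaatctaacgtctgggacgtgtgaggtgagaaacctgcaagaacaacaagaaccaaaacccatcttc
The RUNX core was found in the promoters of 5 of the 7 genes, against 14.0% of 32851 promoters of the same length. The *Gzmb* promoter held 2 of them, 93 and 34 bases before the start, and the AP-1 letters 58 bases before it (6.75% of promoters hold such a match). The *Gzmc* promoter held 2 RUNX cores and the full CRE 57 bases before the start (1.55% of promoters). *Gzma* held 1 RUNX core and *Gzmk* none of the 4 motifs. Among the promoters not printed, *Prf1* held 1 RUNX core, *Nkg7* held 1 RUNX core and the T-box letters 14 bases before the start (1.12% of promoters), and *Fasl* held none. A match is a run of letters and not a mapped binding site.

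After quality filtering, 7467 control Ab cells and 9162 anti-CD9 Ab cells remained (median 1880 and 1419 UMIs per cell). The libraries shared 54 barcodes, 18 of them among the kept cells. Within the T cell-like and NK cell-like clusters, cells were gated on defining transcripts: *Cd3* genes with *Cd8a* or *Cd8b1*, with *Cd4*, or with *Trdc* and gamma constant genes, and for NK cells receptor genes such as *Ncr1* without any *Cd3* UMI. This gave 66 and 69 NK cells (control Ab and anti-CD9 Ab, respectively), 266 and 65 CD8 T cells, 463 and 217 CD4 T cells, and 1271 and 370 gamma-delta T cells. Each was a smaller share of the anti-CD9 Ab library, which held 2674 neutrophil-like cells against 61, and 0% to 11.3% of a class were predicted doublets. *Eomes*, an NK cell marker outside the gate, had 18 and 27 UMIs in the NK cells and 1 and 0 in the gamma-delta T cells. The gamma-delta gene *Trdc* was not confined to its gate: 164 of its UMIs lay in the CD8 T cells of the control Ab library (3 with anti-CD9 Ab) and 188 and 77 in the CD4 T cells. A cluster led by *Ube2c*, *Birc5* and other cell-cycle genes, called the cycling cluster here, held 5 and 42 of the gamma-delta T cells, 4 and 11 of the CD8 T cells, 10 and 27 of the CD4 T cells, and 0 and 2 of the NK cells. Cluster 26, with 62 cells of the anti-CD9 Ab library that were all predicted doublets and whose leading genes included neutrophil (*Retnlg*, *S100a8*) and T cell (*Themis*) genes, was left out of the classes.

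Levels are given as CPM, counts per 1000000: the UMIs of a gene summed over the cells of a class and divided by all UMIs of these cells, with exact Poisson intervals. They are compared between cells for 1 gene at a time and not between genes. With control Ab, *Gzma*, which encodes a trypsin-like granzyme, had 4507 CPM in NK cells, 1756 in CD8 T cells, 29.4 in CD4 T cells and 22.5 in gamma-delta T cells, where the intervals of the last pair overlapped (19.8 to 42.0 and 16.4 to 29.9). *Gzmb*, the caspase-activating granzyme, had 692 CPM in NK cells and 525 in CD8 T cells (554 to 855 and 468 to 586, overlapping), 57.8 in CD4 T cells and 27.3 in gamma-delta T cells. *Prf1* was highest in NK cells (378 CPM), followed by CD8 T cells (69.7), gamma-delta T cells (8.30) and CD4 T cells (2.94, from 3 UMIs), the last pair again with overlapping intervals. *Gzmk* had another order, with 388 CPM in CD8 T cells, 58.8 in CD4 T cells, 8.05 in NK cells (1 UMI) and 2.44 in gamma-delta T cells (5 UMIs), where the last pair could not be ordered. *Nkg7*, which encodes a granule membrane protein needed for degranulation, was at 2205 CPM in NK cells, 2069 in CD8 T cells, 388 in CD4 T cells and 41.5 in gamma-delta T cells, and the intervals of NK and CD8 T cells overlapped. *Fasl* had 161 CPM in NK cells and 154 in CD8 T cells (overlapping), 51.0 in CD4 T cells and 3.42 in gamma-delta T cells. *Gzmc* was at 314 CPM in NK cells, 14.9 in CD8 T cells, 0.980 in CD4 T cells (1 UMI) and at 0 UMIs in gamma-delta T cells. Gamma-delta T cells, the most numerous class, therefore had the lowest or next to lowest level of each of the 7 genes with control Ab. Under anti-CD9 Ab, the order of *Gzmb* was 3023 CPM in NK cells, 2166 in CD8 T cells, 599.8 in gamma-delta T cells and 324 in CD4 T cells, with no overlap between neighbouring counting intervals. This order rested on few cells, since the 3 cells with the most *Gzmb* UMIs held 85.5% of the total in NK cells, 61.0% in CD8 T cells, 11.6% in gamma-delta T cells and 75.5% in CD4 T cells. Without them the *Gzmb* level was 1057 CPM in CD8 T cells, 538 in gamma-delta T cells, 527 in NK cells and 80.7 in CD4 T cells, so that gamma-delta T cells stood above CD4 T cells either way. The 3 cells were a larger part of the 65 CD8 T and 69 NK cells than of the 217 CD4 T and 370 gamma-delta T cells.

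**Figure D1:**
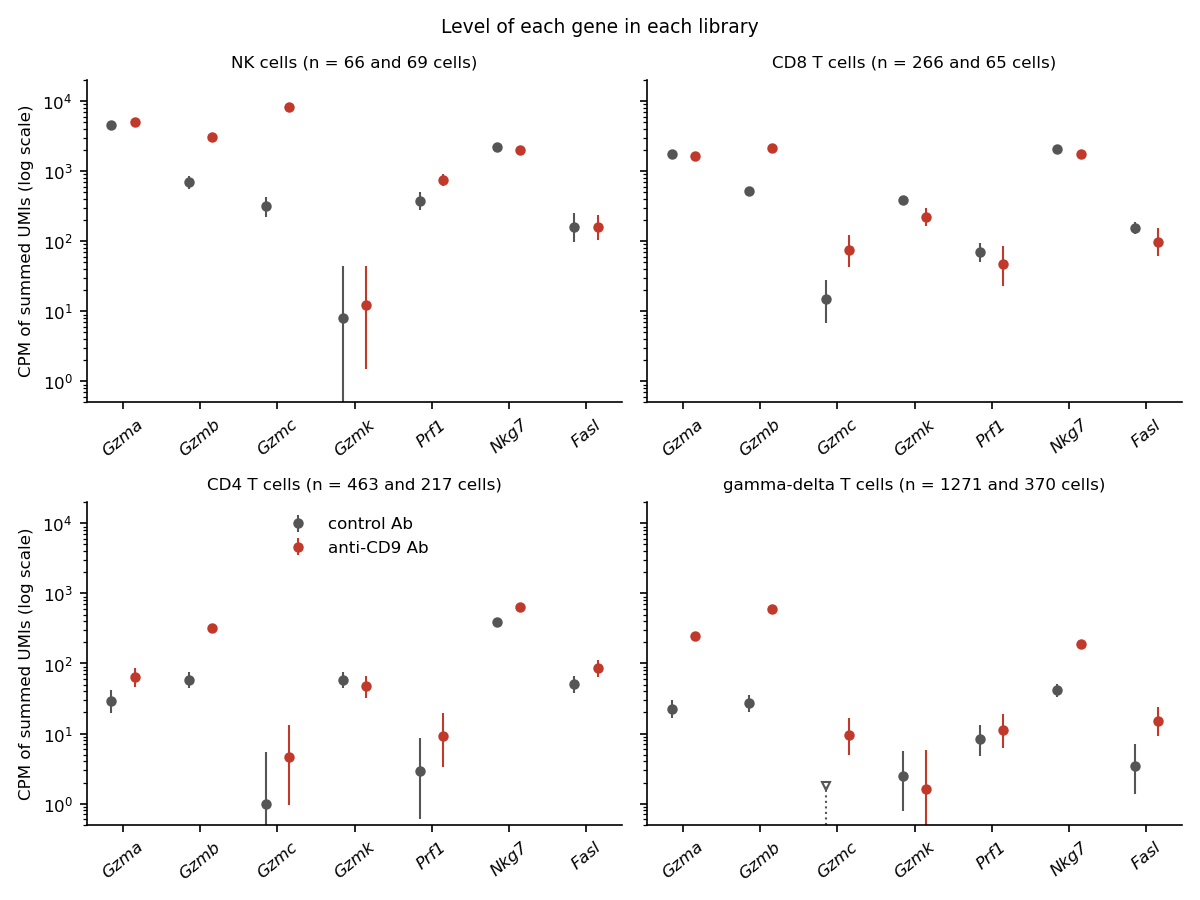
CPM of each gene (log axis) in NK, CD8 T, CD4 T and gamma-delta T cells, with grey points for control Ab, red points for anti-CD9 Ab and bars for exact 95% Poisson intervals. The open triangle with a dotted line is the upper limit of a gene with 0 UMIs. *Gzmb* was higher with anti-CD9 Ab in all 4 classes, and the gap was widest in gamma-delta T cells (27.3 and 599.8 CPM).

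The clearest difference was in gamma-delta T cells, which carried several granule genes with anti-CD9 Ab that they hardly carried with control Ab. *Gzmb* had 56 UMIs in the control Ab library (27.3 CPM, 20.6 to 35.5) and 744 in the anti-CD9 Ab library (599.8 CPM, 557 to 644), a log2 ratio of anti-CD9 Ab over control Ab of 4.46 (4.06 to 4.87). *Gzma* had 22.5 CPM and 247 CPM, respectively (log2 ratio 3.46, 3.01 to 3.94). *Nkg7* had 41.5 CPM and 192 CPM (2.21, 1.85 to 2.58). None of these pairs of intervals overlapped. *Fasl* was low in both libraries, at 7 and 19 UMIs (3.42 and 15.3 CPM, 2.16, 0.85 to 3.66).

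The pore-forming partner did not follow this pattern. *Prf1* had 17 UMIs (8.30 CPM) with control Ab and 14 (11.3 CPM) with anti-CD9 Ab in gamma-delta T cells, a log2 ratio of 0.44 whose interval spanned 0 (−0.69 to 1.55), and none of these cells had more than 1 of them. Thinned to 1000 UMIs per cell, 1.05% (0.546 to 1.83%) and 1.42% (0.461 to 3.27%) of the gamma-delta T cells had a *Prf1* UMI (unthinned 1.34% and 3.78%). *Gzmk* had 5 and 2 UMIs. *Gzmc*, a granzyme with chymotrypsin-like specificity, had 0 and 12 UMIs, and the counting interval of its ratio began at 4.59-fold (log2 ratio 2.20). Of the 3 members with 50 or more UMIs over both libraries, namely *Gzma*, *Gzmb* and *Nkg7*, 3 were higher by 2-fold or more, where 2.90% of the 7543 genes with as many UMIs were higher and 2.93% lower. Their median log2 ratio was 3.46, beside −0.10 over all these genes. *Gzma*, whose own ratio is this median, had 46 UMIs with control Ab and passed the minimum only through its 306 with anti-CD9 Ab. The other 4 members were below this minimum.

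The *Gzmb* UMIs of gamma-delta T cells were spread over many cells. At least 1 UMI was found in 37 of 1271 cells with control Ab and in 123 of 370 with anti-CD9 Ab, and 0 and 24 cells had 10 or more. The 3 cells with the most UMIs held 11.6% of the total with anti-CD9 Ab, and without them the level was 538 CPM, against 18.6 CPM with control Ab likewise reduced. Since the gamma-delta T cells had more UMIs per cell with anti-CD9 Ab (median 2817.5, against 1522), each cell was thinned to 1000 UMIs, which left out 133 and 17 cells. After thinning, 2.11% (24 of 1138, 1.36 to 3.12%) and 22.4% (79 of 353, 18.1 to 27.1%) of the cells had a *Gzmb* UMI, and unthinned the shares were 2.91% and 33.2%. For *Nkg7*, the thinned shares were 1.93% (1.22 to 2.91%) and 10.5% (7.49 to 14.2%), and the unthinned ones 2.91% and 18.4%. *Gzma* was found in fewer cells, 1.32% and 6.52% (unthinned 1.73% and 7.57%), and 10 of the 28 cells with a *Gzma* UMI under anti-CD9 Ab had 10 or more. The share with any of the 7 genes was 6.33% and 35.1%.

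The background of these shares was read from cells that should lack *Gzmb*. Microglia-like cells had a UMI of it in 0.515% of thinned cells with control Ab and in 0 of 830 with anti-CD9 Ab. By the limit of 3 counts, the latter allows up to 0.361% (median 2625.5 and 2853 UMIs). Medians in this paragraph are over all cells of a kind before thinning, including those that thinning left out. B cell-like cells had it in 0 of 30 (up to 10.0% by the same limit) and 1.15% of 87 cells (median 2962 and 1689 UMIs). Neutrophil-like cells with anti-CD9 Ab had it in 0.164% (median 1171.5 UMIs). Oligodendrocyte-like cells with anti-CD9 Ab had the highest share, 4.29% (3 of 70, 0.893 to 12.0%), against 0.476% with control Ab. Thinning left out 107 and 184 of these cells, respectively (median 865 and 1632 UMIs). Thinned to 500 UMIs, the share with anti-CD9 Ab was 1.69% (3 of 177). The *Gzmb* share of gamma-delta T cells with anti-CD9 Ab (18.1 to 27.1%) was thus above each of these intervals, and that with control Ab (1.36 to 3.12%) above that of microglia-like cells (0.247 to 0.944%) but overlapping with those of oligodendrocyte-like (0.0577 to 1.71%), B cell-like (0 to 11.6%) and neutrophil-like cells (0 to 17.6%) of the same library. The plasma cell-like cluster 5 was not among these backgrounds and no share was computed for it. It had 124 *Gzmb* UMIs (77.1 CPM) in 1233 anti-CD9 Ab cells and 0 in 30 control Ab cells, more than a low background in the first library. The unnamed cluster 1, nearest to monocytes, was left out of the backgrounds as well. It had 6 *Gzmb* UMIs (4.18 CPM) in 217 control Ab cells and 156 (22.8 CPM) in 1284 anti-CD9 Ab cells. The NK receptor genes *Ncr1* and *Klrb1c* were near 0 in the gamma-delta T cells of both libraries (4 and 5 UMIs, and 11 and 1 UMIs, respectively).

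The difference was found in both large clusters of gamma-delta T cells. In cluster 7, 25.5 and 589 CPM of *Gzmb* were measured over 629 and 203 cells (4.53, 3.98 to 5.13), and in cluster 9 the values were 18.9 and 871 CPM over 604 and 109 cells (5.52, 4.77 to 6.38). *Gzma* differed by 2.72 (2.01 to 3.49) in cluster 7 and 4.24 (3.26 to 5.37) in cluster 9, and *Nkg7* by 2.86 (2.19 to 3.58) and 4.38 (3.30 to 5.67). Among the 42 gamma-delta T cells of the cycling cluster with anti-CD9 Ab, *Gzmb* stood at 441 CPM and *Gzma* at 538 CPM, while the 5 control Ab cells there had no UMI of either. Outside the cycling cluster, the log2 ratio of *Gzmb* was 4.55 (4.16 to 4.98), that of *Gzma* 2.77 (2.28 to 3.28) and that of *Nkg7* 2.18 (1.80 to 2.57).

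**Figure D2:**
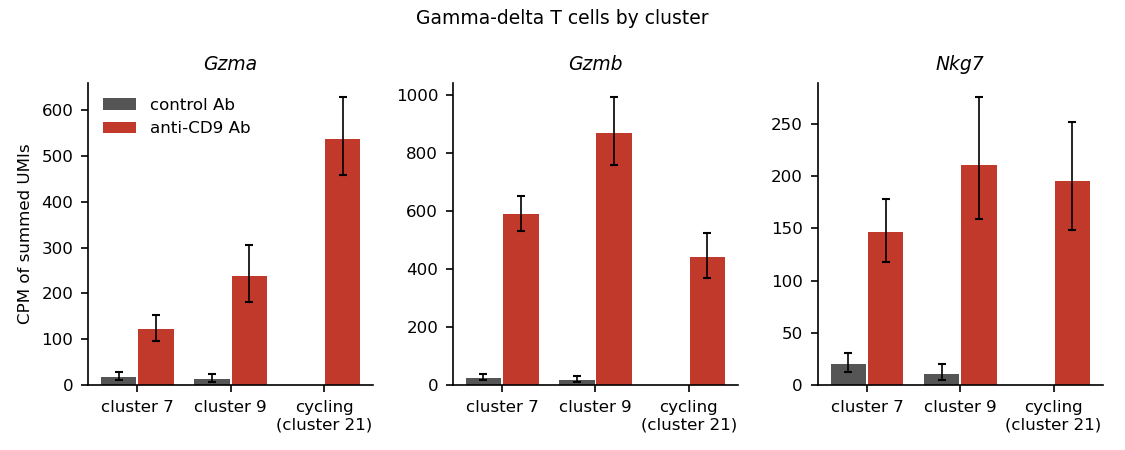
CPM of *Gzma*, *Gzmb* and *Nkg7* in gamma-delta T cells of cluster 7, cluster 9 and the cycling cluster (linear axes from 0), with grey bars for control Ab, red bars for anti-CD9 Ab and lines for exact 95% Poisson intervals. All 3 genes were higher with anti-CD9 Ab in clusters 7 and 9, and the 5 control Ab cells of the cycling cluster had no UMI of them.

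Within the gamma-delta T cells of the anti-CD9 Ab library, *Gzmb* was more frequent in cells with *Il17a*. After thinning, the *Gzmb* share was 35.8% (26.2 to 46.3%) in the 95 cells with a UMI of *Il17a*, the gene of the cytokine IL-17A, and 17.4% (at most 22.6%) in the 258 without. With control Ab these shares were 3.24% (1.31 to 6.56%) and 1.84% (1.08 to 2.94%). Cells with and without a UMI of the proliferation gene *Mki67* had shares of 18.2% (6.98 to 35.5%) and 22.8% (18.3 to 27.8%) under anti-CD9 Ab. Of the 79 cells with a *Gzmb* UMI under anti-CD9 Ab, 10 also had one of *Gzma* and 11 one of *Nkg7*. Beside the granule genes, *Il17a* was at 290.4 CPM with control Ab and 2439 CPM with anti-CD9 Ab in gamma-delta T cells, and *Mki67* at 25.4 and 157 CPM. The summed levels of macrophage markers (7 genes, 2 and 0 of them at 0) were 123 and 529.6 CPM, of neutrophil markers (6 genes, none at 0) 63.0 and 119 CPM, and of microglia markers (7 genes, none at 0) 346 and 149.9 CPM. The part of these differences in the granzyme result was not tested.

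**Figure D3:**
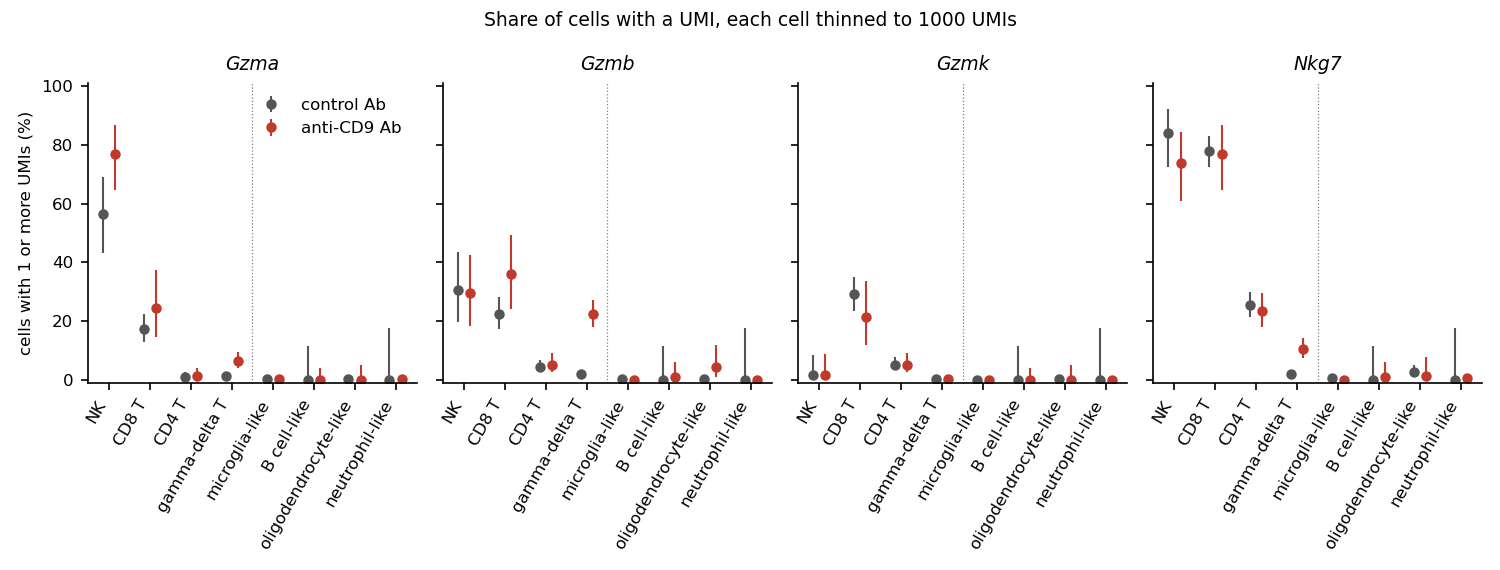
Percentage of cells with 1 or more UMIs of *Gzma*, *Gzmb*, *Gzmk* and *Nkg7* after each cell was thinned to 1000 UMIs, with exact 95% binomial intervals, in the 4 lymphocyte classes (left of the dotted line) and in 4 kinds of cells that give the background. *Gzmb* was found in 2.11% of gamma-delta T cells under control Ab and in 22.4% under anti-CD9 Ab, while CD4 T cells had 4.43% and 5.16%.

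In NK cells, *Gzmc*, *Gzmb* and *Prf1* had the widest differences among the members with 50 or more UMIs. The summed level of the 7 genes was 8266 CPM with control Ab and 19385 CPM with anti-CD9 Ab in NK cells (log2 ratio 1.23, 1.13 to 1.33), and most of the difference lay in very few cells. *Gzmc* had 39 UMIs in 12 of 66 cells with control Ab (314 CPM) and 1354 UMIs in 6 of 69 cells with anti-CD9 Ab (8338 CPM, log2 ratio 4.73, 4.27 to 5.23). A single cell, 1 of the 2 NK cells in the cycling cluster, carried 721 of these UMIs, and the 3 highest cells 92.5% of them. That cell had 15860 UMIs in all, 144 of *Gzmb*, 41 of *Prf1* and 0 of *Gzma*, and was not a predicted doublet. Without the 3 highest cells of each library, *Gzmc* was at 135 and 758 CPM. The share of thinned cells with a *Gzmc* UMI was 12.9% (5.74 to 23.9%) and 9.84% (3.70 to 20.2%), and unthinned 18.2% and 8.70%. It was 0 of 1943 microglia-like cells (up to 0.154%) and 0.120% of 830. The unnamed cluster 1, nearest to monocytes (217 and 1284 cells), had 1 and 127 *Gzmc* UMIs (0.697 and 18.6 CPM), and no share was computed for it. *Gzmc* is thus described here by 6 cells, which all had 10 or more UMIs of it, against 1 of the 12 with control Ab. The size of its difference also depended on the quality filter. At a mitochondrial limit of 5% in place of 2%, the NK class grew to 191 and 154 cells and the log2 ratio of *Gzmc* was 2.95.

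The other members gave smaller differences than *Gzmc* in NK cells. *Gzmb* had 692 and 3023 CPM (2.13, 1.79 to 2.47), with 85.5% of the anti-CD9 Ab UMIs in 3 cells, and without the 3 highest cells 403 and 527 CPM. The thinned share with a *Gzmb* UMI was 30.6% (19.6 to 43.7%) and 29.5% (18.5 to 42.6%), and the unthinned one 39.4% and 46.4%. *Gzma* had 4507 and 5086 CPM (0.17, 0.02 to 0.33) and a thinned share of 56.5% (43.3 to 69.0%) and 77.0% (64.5 to 86.8%), unthinned 68.2% and 76.8%. *Prf1* had 378 and 751 CPM (0.99, 0.49 to 1.51) and 279 and 408 CPM without the 3 highest cells. *Nkg7* (2205 and 2014 CPM, −0.13, −0.37 to 0.11) and *Fasl* (161 and 160.1 CPM, −0.01, −0.91 to 0.91) had intervals that spanned 0. *Gzmk* had 1 and 2 UMIs. The gate kept 66 of the 156 control Ab cells of the NK cell-like cluster 17 and 66 of its 105 anti-CD9 Ab cells. Over the whole cluster, which also held T cells, the log2 ratio was 0.80 (0.66 to 0.93) for *Gzma* and 0.30 (0.12 to 0.48) for *Nkg7*. The small ratios of these genes in NK cells thus depended on the gate. Of the 5 members with 50 or more UMIs, 2 (*Gzmb* and *Gzmc*) were higher by 2-fold or more and 0 lower, against a background of 4.78% of 1004 genes higher and 3.29% lower. *Gzmc* (39 and 1354 UMIs) passed this minimum only through the anti-CD9 Ab library. Without the cycling cluster, the log2 ratio was 3.85 for *Gzmc*, 1.85 for *Gzmb* and 0.58 for *Prf1*. Among the receptor genes of the gate, *Ncr1* and *Klrb1c* were lower with anti-CD9 Ab (log2 ratios −0.67 and −1.01) and *Klra8* was higher (0.88), and *Mki67* had 0 and 18 UMIs. Macrophage markers summed to 105 and 419 CPM (5 and 3 of 7 at 0) and neutrophil markers to 8.05 and 160.1 CPM (5 and 0 of 6 at 0), whose part in the result was not tested.

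*Gzmc* stands in the granzyme gene cluster of chromosome 14, and its near copies could share reads with it. In the GENCODE M21 transcripts, 14.8% of the 31-base words of *Gzmc* also occurred in another granzyme transcript, most of them in *Gzme* (8.22%) and *Gzmg* (7.29%), and 2.20% in *Gzmb*. Of the neighbours, *Gzmd* had 0 and 7 UMIs in NK cells, *Gzme* 0 and 6, *Gzmf* 0 and 0, and *Gzmg* 0 and 1. The words of *Gzma*, *Gzmk*, *Prf1*, *Nkg7* and *Fasl* were not shared with any of the other genes compared, and 1.35% of those of *Gzmb* were shared with *Gzmc*.

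CD8 T cells had opposite differences in 2 granzymes. *Gzmb* had 316 UMIs (525 CPM) in the control Ab library and 459 (2166 CPM) in the other, a log2 ratio of 2.05 (1.84 to 2.26). *Gzmk*, which encodes another trypsin-like granzyme, had 234 UMIs (388 CPM, 340.3 to 442) and 47 (222 CPM, 163 to 295), a log2 ratio of −0.81 (−1.29 to −0.35) that ranged from −1.61 with classes from sub-clusters to −0.41 with a mitochondrial limit of 5%. The *Gzmb* sum rested partly on few cells: 61.0% of the anti-CD9 Ab UMIs were in 3 of 65 cells, 136 and 88 of them in 2 cells of the cycling cluster. Without the 3 highest cells of each library, *Gzmb* was at 427 and 1057 CPM, and outside the cycling cluster at 541 and 1188 CPM (1.14, 0.86 to 1.41). Within cluster 18, which held 187 and 41 of the CD8 T cells, *Gzmb* differed by 1.17 (0.86 to 1.47) and *Gzmk* by −1.23 (−1.94 to −0.59). *Gzmk* outside the cycling cluster was at 391 and 178 CPM (−1.14, −1.79 to −0.54).

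The shares of CD8 T cells had the same direction but overlapping intervals. After thinning, a *Gzmb* UMI was found in 22.4% (17.5 to 28.1%) and 36.1% (24.2 to 49.4%) of the cells, and a *Gzmk* UMI in 29.1% (23.6 to 35.1%) and 21.3% (11.9 to 33.7%). Unthinned, the shares were 30.1% and 43.1% for *Gzmb* and 47.7% and 33.8% for *Gzmk*. Microglia-like cells had a *Gzmk* UMI in 0.154% of thinned cells with control Ab and in 0 of 830 with anti-CD9 Ab (up to 0.361%). *Gzma* had 1756 and 1671 CPM (−0.07, −0.25 to 0.10) and turned to 0.24 (0.05 to 0.42) outside the cycling cluster, but 68.9% of its anti-CD9 Ab UMIs lay in 3 cells, and without the 3 highest it was at 1411 and 543 CPM. These 3 cells were a larger part of the 65 anti-CD9 Ab cells than of the 266 control Ab cells, which lowers the second value more. The share of CD8 T cells with a *Gzma* UMI was 17.3% (12.9 to 22.5%) and 24.6% (14.5 to 37.3%) after thinning, and 19.9% (15.3 to 25.2%) and 26 of 65 cells (28.0 to 52.9%) unthinned, so that the share and the level without the 3 highest cells had opposite directions. *Nkg7* had 2069 and 1756 CPM (−0.24, −0.41 to −0.07) with −0.19 (−0.39 to 0.01) outside the cycling cluster, and was found in 78.0% and 77.0% of the thinned cells (89.5% and 89.2% unthinned). *Prf1* (69.7 and 47.2 CPM, −0.56, −1.72 to 0.46) and *Fasl* (154 and 99.1 CPM, −0.64, −1.40 to 0.06) had intervals that spanned 0. *Gzmc* had 9 UMIs in 5 cells and 16 in 3, of which 14 were in a single cell. Of the 6 members with 50 or more UMIs, 1 (*Gzmb*) was higher by 2-fold or more and 0 lower, against 3.47% and 3.68% of 3230 genes. The summed level of the 7 genes was 4977 and 6036 CPM (0.28, 0.18 to 0.37), and 0.03 without the 3 highest cells.

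Among CD8 T cells with control Ab, the granzymes overlapped in part. Of the 44 thinned cells with a *Gzma* UMI, 27 (61.4%) also had one of *Gzmb*, against 14.3% of those without *Gzma*. A *Gzmb* UMI was found in 35.1% of the cells with and 17.2% of those without a *Gzmk* UMI. With anti-CD9 Ab, 9 of the 13 cells with a *Gzmk* UMI (69.2%) had one of *Gzmb*, and 27.1% of those without. In the same class, the log2 ratio was −4.27 for *Trdc* and 3.12 for *Mki67*, macrophage markers summed to 98.0 and 330.4 CPM (5 and 2 of 7 at 0), and neutrophil markers to 18.3 and 80.2 CPM (3 and 3 of 6 at 0). The part of these markers was not tested, and the CD8 gate without any *Trdc* UMI gave a summed log2 ratio of 0.18.

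**Figure D4:**
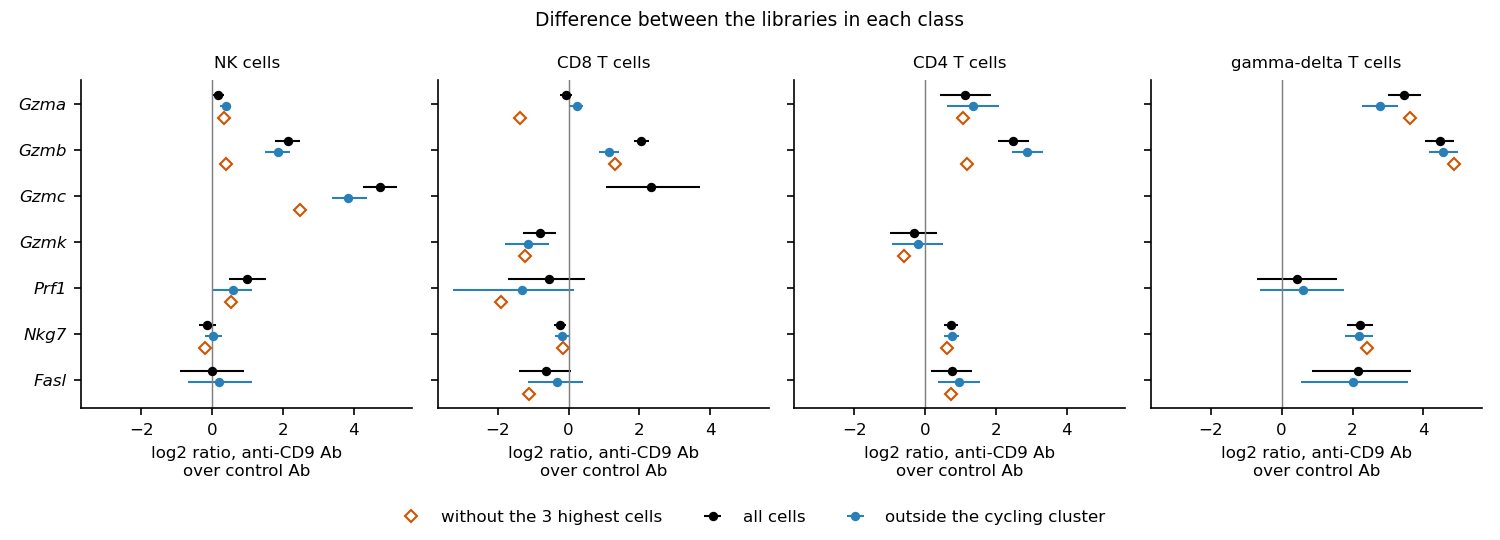
Log2 ratio of CPM, anti-CD9 Ab over control Ab, for each gene in each class with 95% counting intervals, in all cells (black, genes with 20 or more UMIs), outside the cycling cluster (blue) and, without interval, after the 3 cells with the most UMIs of that gene were left out of each library (open diamonds, genes with 50 or more UMIs). In gamma-delta T cells the 3 values of *Gzmb* lay together, whereas in NK cells those of *Gzmb* and *Gzmc* moved towards 0 without the 3 highest cells.

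CD4 T cells had low levels of most of these genes, and their *Gzmb* sum turned on 1 cell. *Gzmb* had 59 UMIs (57.8 CPM) with control Ab and 212 (324 CPM) with anti-CD9 Ab (2.49, 2.06 to 2.93), and 130 of the latter (61.3%) were in a single cell of cluster 7, whose other T cells were mostly gamma-delta T cells. Without the 3 highest cells of each library the levels were 35.5 and 80.7 CPM. A *Gzmb* UMI was found in 4.43% (2.69 to 6.83%) and 5.16% (2.61 to 9.05%) of the thinned cells, and in 6.91% and 10.1% of the unthinned ones. *Nkg7* was more widespread, with 388 and 638 CPM (0.72, 0.52 to 0.92), and 352 and 545 CPM without the 3 highest cells. Its share was 25.4% (21.4 to 29.8%) and 23.5% (18.0 to 29.7%) of thinned cells and 34.6% and 35.5% of unthinned ones. *Fasl* had 51.0 and 85.5 CPM (0.75, 0.18 to 1.32) and a thinned share of 5.59% (3.62 to 8.21%) and 8.45% (18 of 213), unthinned 9.94% and 18.4%.

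*Gzmk* had 58.8 and 47.4 CPM in CD4 T cells (−0.31, −0.99 to 0.34). *Gzma* had 30 and 42 UMIs (1.13, 0.41 to 1.85), of which 23 and 27 were in the highest cell of each library. The control Ab cell was a predicted doublet, and the log2 ratio of *Gzma* was 2.88 without predicted doublets. *Prf1* had 3 and 6 UMIs and *Gzmc* 1 and 3. Of the 5 members with 50 or more UMIs, 2 (*Gzma* and *Gzmb*) were higher by 2-fold or more and 0 lower, against 2.64% and 2.27% of 5634 genes. *Gzma* (30 and 42 UMIs) reached this minimum only when the anti-CD9 Ab library, where it was higher, was added. A single cell held 64.3% of its anti-CD9 Ab UMIs, and another 61.3% of those of *Gzmb*. *Foxp3* is the gene of regulatory T cells. The 24 and 13 cells with a UMI of it had 5 and 22 *Gzmb* UMIs (67.9 and 479.5 CPM, 2.82, 1.38 to 4.58). Those without it had 57.1 and 312 CPM (2.45, 2.01 to 2.92). Of their 190 *Gzmb* UMIs with anti-CD9 Ab, 130 lay in the single cell of cluster 7 named above. After thinning, a *Gzmb* UMI was found in 1 of 23 and 3 of 13 cells with *Foxp3*. Without *Foxp3*, it was found in 18 of 406 and 10 of 200 cells. The intervals of these shares overlapped between the libraries in both kinds of cells. Summed over the 7 genes, CD4 T cells were at 589 and 1173 CPM (0.99, 0.84 to 1.15). This became 0.66 without the 3 highest cells, 0.63 without cells that had a *Trdc* UMI and 0.22 when the class was taken from sub-clusters. *Mki67* was higher by 1.95 on the log2 scale and neutrophil markers summed to 17.6 and 217 CPM (2 and 1 of 6 at 0), and their part was not tested.

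Seen over all kept cells of each library, the cells that held the transcripts differed as well. Gamma-delta T cells held 6.09% of all *Gzmb* UMIs of kept cells with control Ab (56 of 920) and 29.8% with anti-CD9 Ab (744 of 2500), while they made up 17.0% and 4.04% of the cells. CD8 T cells held 34.3% and 18.4% of the *Gzmb* UMIs. For *Gzma*, the share of CD8 T cells was 49.2% and 18.0%, that of NK cells 26.1% and 41.9% and that of gamma-delta T cells 2.14% and 15.5%. NK cells held 53.4% and 82.6% of *Gzmc* and 30.5% and 57.3% of *Prf1*. Over all kept cells, *Gzma* was at 86.2 and 86.9 CPM, *Gzmb* at 36.9 and 110.3 CPM, *Gzmk* at 23.9 and 6.66 CPM, *Nkg7* at 143 and 95.5 CPM and *Fasl* at 13.6 and 8.91 CPM. Over all barcodes before filtering, *Gzma* was at 107 and 138 CPM, *Gzmb* at 42.2 and 148 CPM and *Gzmk* at 28.3 and 13.3 CPM. *Nkg7* was then at 184 and 157 CPM and *Fasl* at 17.3 and 12.3 CPM. *Gzmc* stood at 2.93 and 72.3 CPM in kept cells (73 and 1639 UMIs). Before filtering it stood at 7.94 and 56.8 CPM (302 and 2320 UMIs), a smaller gap between the libraries. Filtering thus took away a larger part of the *Gzmc* UMIs in the control Ab library. In such library-wide values, fewer cells of a class and less RNA per cell cannot be told apart.

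**Figure D5:**
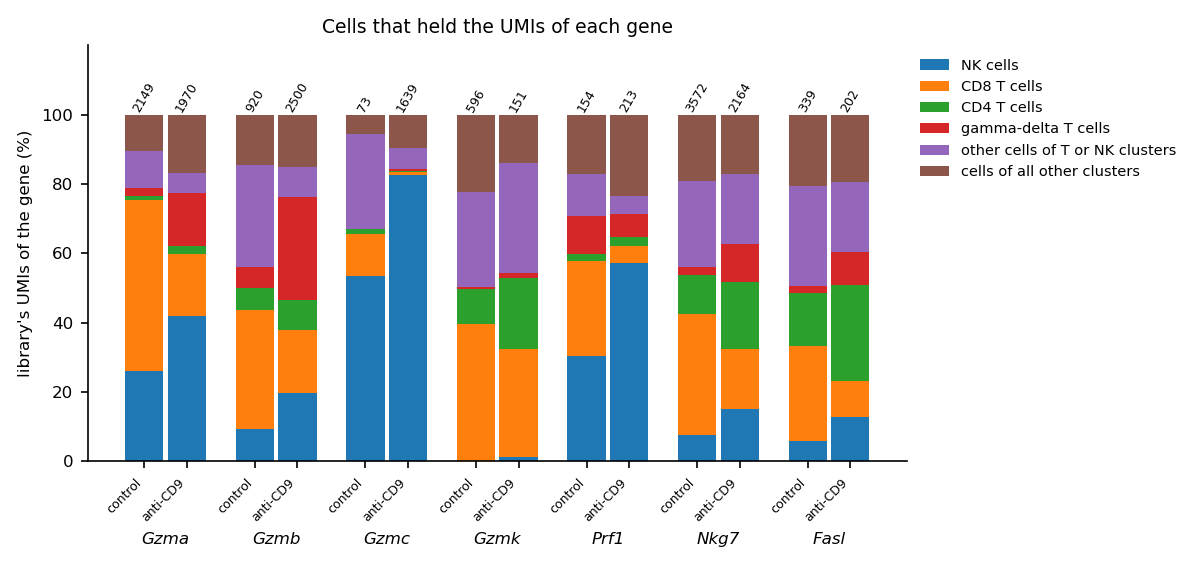
Percentage of each gene's UMIs that lay in NK, CD8 T, CD4 T and gamma-delta T cells, in the other cells of the T and NK clusters and in all other clusters, for control Ab (left bar of each pair) and anti-CD9 Ab (right bar), with the number of UMIs above each bar. The gamma-delta part of *Gzmb* was 6.09% and 29.8%, and the NK part of *Gzmc* 53.4% and 82.6%.

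A list of 42 other genes of cytotoxicity (further granzymes, granzyme inhibitors, granule and exocytosis genes, NK receptors, transcription factors and effector cytokines) was examined in the same way. In gamma-delta T cells, 8 of the 29 with 50 or more UMIs were higher by 2-fold or more and 1 lower (median log2 ratio 0.43), against 2.90% and 2.93% of all genes. The minimum was set on both libraries together, so some genes passed it only through the library where they were higher. Examples are *Ccl4* in gamma-delta T cells (26 and 95 UMIs), *Serpinb6b* (21 and 98) and *Serpinb9* (20 and 61) in NK cells. In CD4 T cells, *Xcl1* (35 and 157) and *Klrd1* (21 and 64) did so. The chemokine genes *Ccl4* (12.7 and 76.6 CPM, 2.59), *Ccl5* (70.3 and 293 CPM, 2.06) and *Ccl3* (12.2 and 33.9 CPM, 1.47), whose products attract lymphocytes and monocytes, were the highest. *Ccl4* and *Ccl3* were also among the leading genes of a neutrophil-like cluster (10 cells with control Ab, 1441 in the other library), neutrophil markers in the gamma-delta T cells summed to 63.0 and 119 CPM, and their part in these values was not tested. The lowest were *Lamp1*, the lysosome and granule membrane gene (146 and 67.7 CPM, −1.11), *Tnf* (−0.34) and *Runx3* (−0.28). *Tbx21* and *Prdm1*, the genes of the effector transcription factors T-bet and Blimp-1, were each higher by 1.04. In NK cells, 2 of 17 were higher and 0 lower (median −0.09), against 4.78% and 3.29% of all genes: *Serpinb6b* (169 and 603 CPM, 1.84, 1.15 to 2.59) and *Serpinb9* (161 and 376 CPM, 1.22, 0.47 to 2.03), both genes of intracellular serpins that inhibit granzymes. The next was *Ccl5* (0.72), and *Tbx21* (−0.69), *Cd226* (−0.69) and *Ncr1* (−0.67) were the lowest. Both serpin genes passed the minimum only through the anti-CD9 Ab library. They were also among the leading genes of a dendritic cell-like cluster (17 cells with control Ab, 168 with anti-CD9 Ab). Dendritic cell markers summed to 8.05 and 12.3 CPM in the NK cells (6 and 6 of 7 at 0), and their part was not tested. How the serpin UMIs were spread over the NK cells was not examined. At a minimum of 20 UMIs, 2 of 26 listed genes were higher and 2 lower in NK cells, against 7.30% and 5.24% of all genes.

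In CD8 T cells, 1 of 25 of these genes was higher and 2 lower (median −0.11), against 3.47% and 3.68% of all genes. *Ifng*, the interferon-gamma gene, had 74.7 and 208 CPM (1.47, 0.84 to 2.11), followed by the exocytosis gene *Stx11* (0.99) and *Ccl3* (0.66). *Tnf* had 178 and 33.0 CPM (−2.43, −3.78 to −1.33), *Xcl1* 144 and 56.6 CPM (−1.35) and *Cst7*, which encodes an inhibitor of granzyme-activating cathepsins, 214 and 118 CPM (−0.86). In CD4 T cells, 3 of 25 were higher and 0 lower (median 0.25), against 2.64% and 2.27% of all genes: *Xcl1* (34.3 and 239.8 CPM, 2.81), *Klrd1* (20.6 and 97.8 CPM, 2.25) and *Ifng* (153 and 479.6 CPM, 1.65). The lowest there were *Tnf* (−0.80), *Lamp1* (−0.78) and *Cd226* (−0.52).

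The genes whose CPM followed each member most closely were sought over 11 kinds of cells in the 2 libraries (21 points, log2 scale). These points share libraries and depth, and the correlations are descriptions only. *Nkg7* went with *Ctla2a* and *Gm2682* (Pearson r 0.967 each) and *Hopx* (0.961), *Gzmb* with *Nkg7* (0.935), *Sytl3* (0.931) and *Cysltr2* (0.929), and *Gzma* with *Prf1* (0.910), *Klrc1* (0.902) and *Itga1* (0.891). *Prf1* was closest to *Klra7* (0.931) and *Gzmc* to *Prf1* (0.916), and *Fasl* to *Gm33104* (0.961) and *Nkg7* (0.954). Since *Klra7* is a receptor gene of the NK gate, its level in the NK points was partly set by the gate. *Gzmk* stood apart with T cell genes, namely *Trat1* (0.860), *Ubash3a* (0.854) and *Cxcr3* (0.850).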

How the data were processed

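Gene by cell UMI counts of 2 libraries (10x Single Cell 3′ v3.1) were used as deposited by the authors, who, per the submitters' processing notes, made them with Cell Ranger 8.0.0 on GRCm39; the paper's methods name an earlier Cell Ranger version and the build GRCm38, while the header of the deposited matrices gives the version of the notes; the difference could not be resolved here. The counts were not normalized. Barcodes numbered 12245 (38042608 UMIs) for control Ab and 15173 (40825201 UMIs) for anti-CD9 Ab. Cells with 200 to 7500 genes and at most 2% mitochondrial UMIs were kept and clustered with Seurat 5.3.0 (30 principal components, resolution 0.8, 2000 variable genes without the 7 members and the 42 other cytotoxicity genes). Doublets were predicted by simulation (0.8% per 1000 cells) and amounted to 10.8% and 12.8% of kept cells. They were left in the classes, but clusters 19 and 26, made up mostly or wholly of them, entered no class. Cluster 19 held 211 control Ab and 29 anti-CD9 Ab cells, 97.5% of them predicted doublets, and was not counted as microglia-like.

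Cells of T and NK clusters were gated as NK (no *Cd3* UMI, 2 or more UMIs of *Ncr1*, *Klrb1c*, *Klre1*, *Klra4*, *Klra7* and *Klra8*), gamma-delta T (*Cd3*, *Trdc*, 2 or more UMIs of *Trdc*, *Trgc1*, *Trgc2* and *Trgc4*, no *Cd4* or *Cd8*), CD8 T or CD4 T (*Cd3* and 1 of the coreceptors without the other). UMIs were summed per class and library and divided by all UMIs of the class. Levels have exact Poisson intervals, log2 ratios exact conditional intervals, and shares of cells exact binomial (Clopper-Pearson) intervals, all at 95% and for counting error only. Where a count of 0 is followed by "up to", the limit is that of 3 counts. This is lower than the upper end of the exact 95% interval, which is used in printed intervals and in the figures. With 1 library per antibody there was no test and no p-value. Backgrounds and lists were counted over genes with 50 or more UMIs in both libraries together, and a gene was counted as higher or lower past a 2-fold ratio. A gene could thus pass the minimum through the library in which it was higher. Other cytotoxicity genes were named by the 3 highest and 3 lowest log2 ratios in each class, beyond which *Tbx21* and *Prdm1* in gamma-delta T cells were named after their values were seen. The members and lists were chosen with earlier results of these data known. The log2 ratios were recomputed under 14 alternatives. Scripts were tested on simulated data, with Python 3.11.15, scipy 1.17.1, R 4.3.3 and edgeR 4.0.16 (TMM factors only).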

Additional observations from a re-analysis of the deposited data

Results flagged for a closer look

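The direction of *Nkg7* differed between kinds of T cells in the reported values. Its log2 ratio, with anti-CD9 Ab in the numerator, was 0.72 (0.52 to 0.92) in CD4 T cells and 2.21 (1.85 to 2.58) in gamma-delta T cells, against −0.24 (−0.41 to −0.07) in CD8 T cells, and none of these counting intervals held 0. With 1 library on each side, the difference between the classes was not tested. Outside the cycling cluster the CD8 value was −0.19 (−0.39 to 0.01). Across the alternatives it ranged from −0.40 to −0.02 (mitochondrial limit of 5%), that of CD4 T cells from 0.11 (classes from sub-clusters) to 0.77 and that of gamma-delta T cells from 1.98 to 3.15, so that the gap between CD4 and CD8 T cells was small under some of them. The share of thinned cells with an *Nkg7* UMI was 78.0% and 77.0% in CD8 T cells and 25.4% and 23.5% in CD4 T cells, and 1.93% and 10.5% in gamma-delta T cells.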

How the results depend on the processing

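The log2 ratios were recomputed under 14 alternatives, of which 3 (without the cycling cluster, without the 3 cells with the most member UMIs, and CD4 and CD8 gates without a *Trdc* UMI) were chosen after seeing the data. Of 23 log2 ratios, 20 kept their sign in all alternatives that gave a value, and 310 of 321 values had the sign of the reported one. The exceptions were *Nkg7* in NK cells (same sign in 10 of 14), *Gzma* in CD8 T cells (8 of 14) and *Gzmk* in CD4 T cells (13 of 14). The alternative without a *Trdc* UMI left NK and gamma-delta T cells unchanged, so their signs there were fixed in advance. TMM and median-of-ratios scaling shift a whole class by a small amount and could hardly change a sign. These counts of kept signs therefore overstate the agreement. The summed members of gamma-delta T cells (3.35) became 3.97 without predicted doublets and 3.74 after the microglia-like CPM was subtracted. Those of NK cells (1.23) became 1.01 with a mitochondrial limit of 5%, 0.88 with 20 principal components, 0.55 as a mean of CPM over cells, 0.68 when thinned, 0.95 without the cycling cluster and 0.56 without the 3 highest cells. Those of CD8 T cells (0.28) became 0.17 without doublets, 0.05 with classes from sub-clusters, 0.11 as a mean over cells, 0.05 when thinned, 0.12 without the cycling cluster, 0.03 without the 3 highest cells and 0.18 without *Trdc*. Those of CD4 T cells (0.99) became 0.59 with the limit of 5%, 0.56 with gates of 2 UMIs, 0.22 with sub-clusters, 0.76 when thinned, 1.16 without the cycling cluster, 0.66 without the 3 highest cells and 0.63 without *Trdc*. Leaving out the 3 highest cells took a larger part of a class in the library where it had fewer cells. Apart from the left-out cells and clusters, the cause of these moves was not tested. Across alternatives *Gzmb* ranged from 4.29 to 4.93 in gamma-delta T cells, 0.26 to 2.19 in NK cells, 1.04 to 2.26 in CD8 T cells and 0.75 to 2.88 in CD4 T cells. TMM and median-of-ratios scaling moved no class by more than 0.09 on the log2 scale.

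At a minimum of 20 UMIs in place of 50, genes past 2-fold (higher and lower) numbered 209 and 150 in place of 48 and 33 in NK cells, 327 and 519 in place of 112 and 119 in CD8 T cells, 354 and 407 in place of 149 and 128 in CD4 T cells, and 444 and 538 in place of 219 and 221 in gamma-delta T cells. At a minimum of 1 UMI they numbered 2884 and 2480, 2109 and 4043, 2149 and 3189, and 2131 and 3517, respectively. Lower minima also let in more genes. As shares, 20 UMIs gave 7.30% and 5.24% of 2863 genes in NK cells and 5.34% and 8.48% of 6118 in CD8 T cells. They were 4.28% and 4.93% of 8263 in CD4 T cells and 4.55% and 5.52% of 9753 in gamma-delta T cells. At 1 UMI, NK cells had 24.7% and 21.3% of 11669 genes. No paired analysis was possible because each antibody had 1 library. The precision is limited by 66 and 69 NK cells and 65 anti-CD9 Ab CD8 T cells, and the intervals do not cover differences between mice.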

Other observations

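T cells of the same clusters that entered no gate (1104 in the control Ab library and 407 in the anti-CD9 Ab library) had *Gzmb* at 141 and 248 CPM (log2 ratio 0.81), *Gzmc* at 10.5 and 115 CPM (3.46) and *Gzmk* at 83.8 and 55.7 CPM (−0.59). All of them had a *Cd3* UMI, and how their 20 and 99 *Gzmc* UMIs were spread over single cells was not examined. With anti-CD9 Ab, the NK cell-like cluster 17 held 727 *Gzmc* UMIs. Outside the cycling cluster, gated NK cells held 633, CD8 T cells 1 and CD4 T cells 3, and gamma-delta T cells of cluster 17 held 0. Most of the 99 UMIs thus lay in ungated cells of this NK cell-like cluster, so the ratio of 3.46 does not describe T cells in general. The 62 anti-CD9 Ab cells of cluster 26, all predicted doublets, held 48 *Gzma* and 69 *Nkg7* UMIs. In the cycling cluster as a whole, the thinned share of cells with a *Gzmb* UMI was 6.98% (1.46 to 19.1%, 43 cells) in the control Ab library, against 17.6% (10.8 to 26.4%, 102 cells).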
